A study of Danio rerio with 15 samples.

Results

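Integrins and laminins are a receptor family and one of the main ligand families through which cells hold on to the basement membrane, the thin sheet of matrix under every epithelium and around muscle, nerve and vessels. A laminin is a cross-shaped trimer of an alpha, a beta and a gamma chain, and an integrin is a pair of an alpha and a beta subunit, in which the alpha subunit largely sets the ligand: laminin, collagen, or proteins with the Arg-Gly-Asp (RGD) motif such as fibronectin and vitronectin. In the fin, the epidermis is anchored to the basement membrane through laminin-binding integrins, and fibroblasts and bone-forming cells of the rays grip collagen and fibronectin through others. The genes described here are those whose symbol begins with itga, itgb, lama, lamb or lamc followed by the number or letter of the subunit. That rule gave 47 genes of 23926 in the deposited tables, and all 47 are in each of the 3 pairwise tables. They comprise 21 integrin alpha subunit genes, 11 integrin beta subunit genes, 13 laminin chain genes and 2 genes that encode no subunit, *itgb1bp1* and *itgbl1*.

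The data are RNA-seq of the caudal fin of AB wild-type zebrafish at 3 positions of the proximodistal axis, distal (fin tip), middle and proximal (fin base). The series was made to study positional memory, the property by which fin cells keep a record of where along that axis they lie. Each position has 5 libraries, and each library is a pool of fin pieces from 4 fish, 2 male and 2 female, so fish cannot be told apart within a library and the sexes cannot be compared. No treatment or mutation separates the groups. The deposited tables hold 1 mean per gene and position, whose printed digits fix the 5 whole counts that went into it. Levels are those counts over the size factor of their library ("normalized counts"), in the order of library 1 to 5 of a position, where libraries are numbered by size factor and the numbers do not link libraries of different positions. Counts were recovered for 46 of the 47 genes. The beta 4 subunit gene *itgb4* had more than 1 solution, so the authors' means alone are given for it. Summed over genes with a single solution, a library held from 9925756 to 13474243 reads. These genes held 69.1% of the normalized counts in the distal, 66.3% in the middle and 62.6% in the proximal libraries. The rest lay in genes with more than 1 solution, so the sums are not the full depth. Normalized counts are not divided by transcript length, so they compare 1 gene between positions and not 1 gene with another. A gene was called where the adjusted p of the authors' deposited DESeq table was under 0.05, and limma on the recovered counts gave a second fit with a standard error (SE). All samples are tissue with several cell types, so fewer cells of a type and less RNA per cell cannot be told apart.

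Between the distal and the proximal fin, 28 of the 47 genes were called in the authors' deposited table, 17 higher distally and 11 lower. Of all genes tested there, 36.0% were called, 17.9% higher and 18.1% lower. Most of the 47 genes are well measured, and of those that averaged 20 normalized counts or more 26 of 41 were called (63.4%), against 44.1% of all such genes. In limma, which fitted 43 of the 47 genes in each comparison, 30 were called, where 51.5% of all genes were. Shares of all genes in limma are of the genes it fitted. The higher genes include the laminin beta chain genes *lamb2l* and *lamb1a*, the laminin alpha chain gene *lama1*, and the laminin-binding alpha subunit gene *itga3b*. The lower genes include the beta 1 subunit gene *itgb1b.2*, the beta 8 subunit gene *itgb8*, the laminin beta chain gene *lamb4* and 4 of the 5 integrin genes of white blood cells. Between the distal and the middle fin 28 genes were again called, 18 higher distally and 10 lower, where 26.2% of all genes were called, 13.3% higher and 12.9% lower. Of genes averaging 20 or more the numbers were 25 of 41 (61.0%) and 32.4% of all, and limma called 32 genes, where 38.7% of all were called. Between the middle and the proximal fin 8 were called, 2 higher in the middle and 6 lower, where 7.31% of all genes were called, 3.51% higher and 3.80% lower. Of genes averaging 20 or more they were 7 of 40 (17.5%), against 9.31% of all. limma called 15 genes there, the same 8 and 7 more (*itga1*, *itga10*, *itga5*, *itgb3a*, *lama4*, *lamc1* and *lamc3*), where 13.8% of all genes were called. The comparisons share libraries, so their counts are not independent of each other. The median log2 fold in the authors' deposited tables was 0.07 over the 47 genes distal over proximal, against −0.044 over all genes, and 0.19 distal over middle, against −0.024. Middle over proximal, the medians were −0.044 and −0.011.

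**Figure D1:**
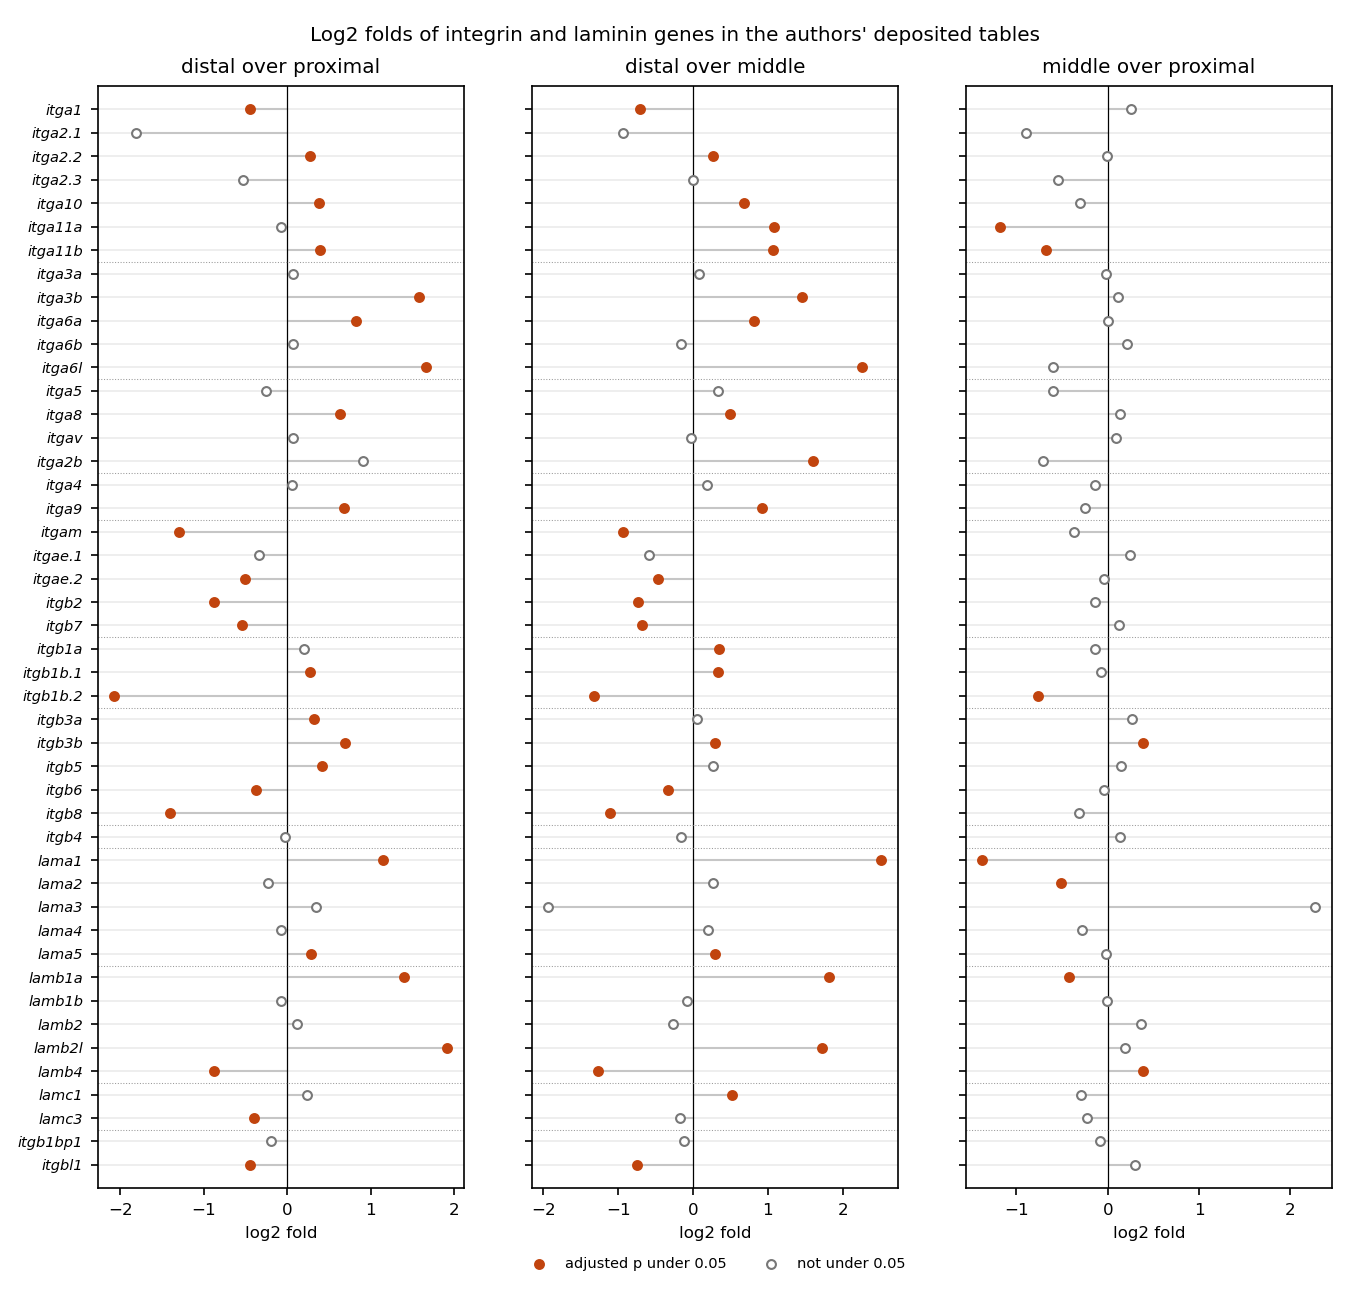
Log2 folds of 46 genes in the authors' deposited tables, distal over proximal (left), distal over middle (centre) and middle over proximal (right), with genes ordered by subunit type and dotted lines between types. Filled points are genes with an adjusted p under 0.05, and the axis range differs between panels; 27, 28 and 8 points are filled, and the middle over proximal panel holds the fewest.

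The laminin chains are the ligand side of the set. Of the 5 alpha chain genes 2 were called higher distally than proximally and 0 lower. Of the 5 beta chain genes 2 were called higher and 1 lower, where 17.9% of all genes were called higher and 18.1% lower. The same counts held between the distal and the middle fin, where 13.3% of all genes were called higher and 12.9% lower. Alpha chains carry the globular domains that integrins bind. The alpha 1 chain gene *lama1* (ENSDARG00000102277), known from early embryonic basement membranes, had 42.2, 67.3, 65.9, 45.9 and 61.4 normalized counts in the distal libraries, 9.74, 11.6, 11.5, 14.4 and 1.71 in the middle and 15.6, 40.8, 16.4, 21.9 and 32.5 in the proximal libraries. The 3 positions did not overlap, with the distal libraries highest and the middle ones lowest. *lama1* was called in every pair of the authors' deposited tables, with log2 folds of 1.15 distal over proximal (adjusted p = 5.61e-05), 2.52 distal over middle (adjusted p = 3.4e-18) and −1.37 middle over proximal (adjusted p = 0.0326). Its lower level in the middle than the proximal fin rested on few reads. In limma that call ended without middle library 5 (adjusted p = 0.069), proximal library 2 (0.0546) or proximal library 5 (0.051). The alpha 2 chain gene *lama2* (ENSDARG00000099390), whose product lies around muscle and nerve in vertebrates, had 145, 162, 197, 153 and 151 normalized counts in the distal libraries, 123, 135, 153, 145 and 112 in the middle and 186, 184, 201, 180.0 and 199.7 in the proximal libraries. Every middle library lay below every proximal one, and the distal libraries overlapped both. *lama2* was called lower in the middle than the proximal fin in the authors' deposited table (log2 fold −0.51, adjusted p = 0.00752) and in neither comparison of the distal fin. In limma it was also called higher distally than in the middle (adjusted p = 0.046).

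The other alpha chain genes differed less. The alpha 5 chain gene *lama5*, a broad epithelial and vascular laminin chain, had 2975 ± 196 in the distal, 2418 ± 259.9 in the middle and 2451 ± 194 in the proximal libraries (SD, n = 5 each, as for every SD below), and was called higher distally than proximally (log2 fold 0.28, adjusted p = 0.0315) and than in the middle (log2 fold 0.29, adjusted p = 0.0226) in the authors' deposited tables. The alpha 4 chain gene *lama4*, of vessel walls and other mesenchymal basement membranes, had 1682 ± 90.03 in the distal, 1455 ± 34.5 in the middle and 1767 ± 134 in the proximal libraries. It was called in no pair of the authors' deposited tables. Its middle libraries lay below all others, and limma called it lower there than proximally (adjusted p = 0.00462) and distally (adjusted p = 0.0122). The gene with the symbol *lama3* stood near the limit of detection, at no more than 13.7 normalized counts in any library, and was called in no pair. The files give the name laminin subunit alpha-3 to another gene, *si:ch211-241e1.3* (ENSDARG00000022615), which the symbol rule leaves out. That gene had 34069, 41737, 39365, 39784 and 24212 normalized counts in the distal libraries, 26587, 22859, 27391, 27184 and 18009.8 in the middle and 15226, 23017, 21843, 22041 and 21156 in the proximal libraries. It was called higher distally than proximally (log2 fold 0.79, adjusted p = 7.72e-05) and than in the middle (log2 fold 0.55, adjusted p = 0.011) in the authors' deposited tables.

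Among the beta chain genes, *lamb2l* (ENSDARG00000033950) had 1542, 1726, 1622, 1175 and 1975 normalized counts in the distal libraries, 406, 439.8, 474, 514 and 591 in the middle and 494, 466, 397, 402 and 368 in the proximal libraries. All 5 distal libraries lay above all others, at 3.78-fold the proximal mean, while the middle and proximal libraries overlapped. *lamb2l* was called higher distally in the authors' deposited tables, by log2 1.92 over proximal (adjusted p = 4.91e-21) and 1.72 over middle (adjusted p = 2.24e-17), and limma gave 1.91 ± 0.127 (SE, adjusted p = 6.52e-10) over proximal. Its neighbour *lamb2* (ENSDARG00000002084) had 71.2, 50.5, 54.9, 71.5 and 65.2 normalized counts in the distal libraries, 62.4, 94.2, 76.03, 80.8 and 59.9 in the middle and 43.98, 66.1, 67.7, 50.5 and 61.3 in the proximal libraries, and these overlapped at all positions. *lamb2* was called in no pair of the authors' deposited tables (log2 fold 0.11, adjusted p = 0.734 distal over proximal).

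The beta 1 chain gene *lamb1a* (ENSDARG00000101209), part of the most widespread laminins, had 2296, 2180.0, 1994, 2064 and 2239.7 normalized counts in the distal libraries, 683, 718, 614, 484 and 540.1 in the middle and 699, 849.9, 839.6, 889 and 808 in the proximal libraries. The distal libraries stood apart at 2.64-fold the proximal mean, and the middle libraries were the lowest, with a slight overlap with the proximal ones. *lamb1a* was called in all pairs of the authors' deposited tables, with log2 folds of 1.40 distal over proximal (adjusted p = 3.32e-34), 1.82 distal over middle (adjusted p = 1.44e-58) and −0.43 middle over proximal (adjusted p = 0.00351). limma gave 1.40 ± 0.0923 (SE) distal over proximal. Its duplicate *lamb1b* (ENSDARG00000045524) had 1719, 1740.2, 1752, 1523 and 1539 normalized counts in the distal libraries, 1706, 1876, 1847, 1643 and 1590.3 in the middle and 1414, 1957, 1669, 1895 and 1764 in the proximal libraries. These ranges overlapped, and *lamb1b* was called in no pair of the authors' deposited tables (log2 fold −0.072, adjusted p = 0.64 distal over proximal).

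*lamb4* (ENSDARG00000039133), a further laminin beta chain gene, ran the other way and peaked in the middle. It had 289.6, 393, 289, 375 and 302 normalized counts in the distal libraries, 774, 809.6, 909, 739.5 and 699 in the middle and 645, 483, 707, 554 and 629.6 in the proximal libraries. Every distal library lay below every other library, at 0.546-fold the proximal mean, and the middle libraries overlapped the proximal ones at their lower end. *lamb4* was called lower distally in the authors' deposited tables, by log2 −0.87 over proximal (adjusted p = 7.14e-09) and −1.26 over middle (adjusted p = 5.34e-25), and higher in the middle than the proximal fin (log2 fold 0.38, adjusted p = 0.0153). In limma the last of these calls ended without middle library 3 (adjusted p = 0.0567) or proximal library 4 (0.0527). In the RefSeq annotation of the GRCz12tu assembly *lamb4* and *lamb1a* are neighbours with no protein-coding gene between them, as are *lamb2* and *lamb2l*, and *lamb1a* and *lamb4* were thus called in opposite directions side by side.

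**Figure D2:**
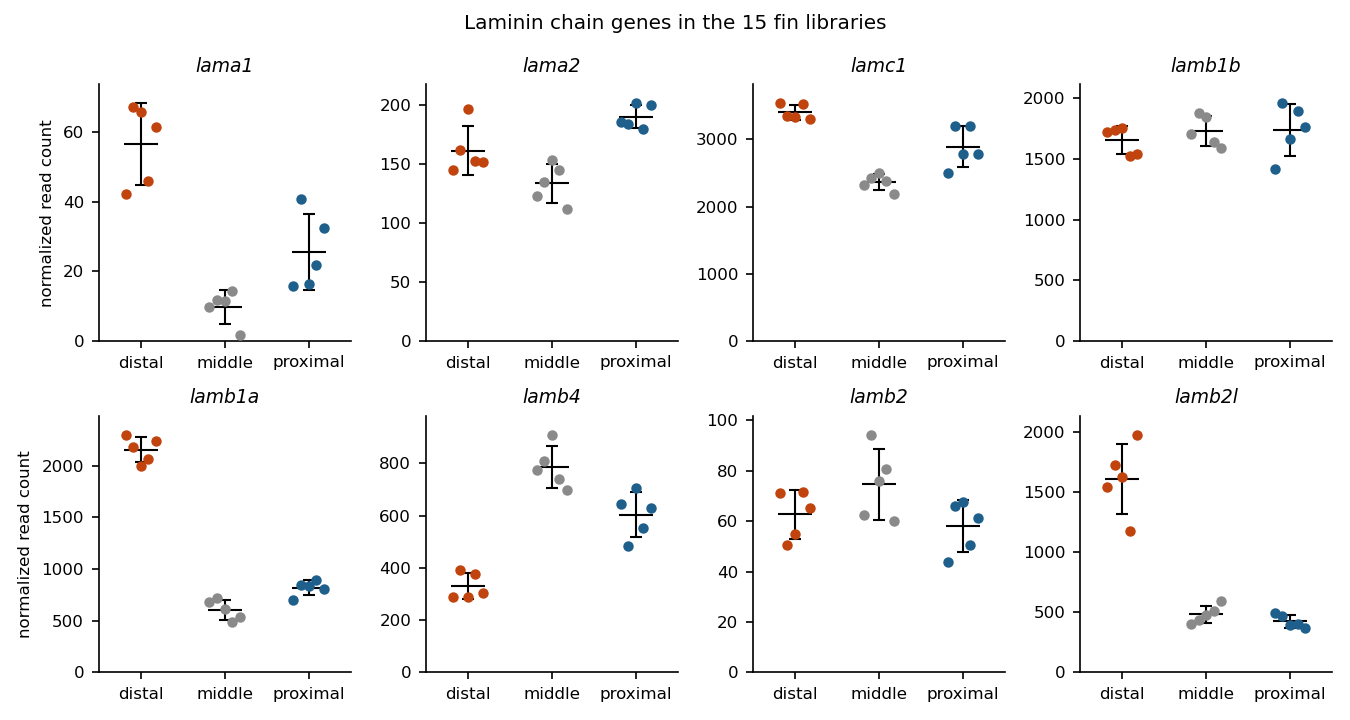
Normalized read counts of 8 laminin chain genes in each of the 15 libraries (points), with the mean and SD over 5 libraries per position (black), distal, middle and proximal from left to right; each axis starts at 0. *lamb1a* and *lamb2l* have all distal points above the rest, *lamb4* has all distal points below the rest, and *lamb2* overlaps at all positions.

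As a share of the normalized counts of the 5 laminin beta genes together, *lamb1a* made up 37.1% ± 2.00 in the distal libraries, 16.4% ± 2.02 in the middle and 22.4% ± 0.834 in the proximal libraries. That of *lamb2l* was 27.5% ± 3.56 in the distal, 13.3% ± 2.56 in the middle and 11.7% ± 1.97 in the proximal libraries. For *lamb4* the shares were 5.71% ± 1.06 in the distal, 21.3% ± 1.18 in the middle and 16.7% ± 3.00 in the proximal libraries, and for *lamb1b* 28.5% ± 2.05 in the distal, 46.98% ± 0.767 in the middle and 47.6% ± 3.42 in the proximal libraries. The share of *lamb2* was 1.09% ± 0.211 in the distal, 2.02% ± 0.325 in the middle and 1.58% ± 0.236 in the proximal libraries. The sum of the 5 genes was 5810 ± 373 normalized counts in the distal, 3686 ± 232 in the middle and 3644 ± 210 in the proximal libraries. The distal libraries thus held more counts of these 5 genes in sum, and larger shares of *lamb1a* and *lamb2l*, than the libraries of either other position. The sum and shares leave out the beta 3 chain gene *si:ch1073-15f12.3*, described below, which falls outside the symbol rule. Its means of 11940 distal, 10651 middle and 9371 proximal were above the sum of the 5 genes. With it included, each of the shares above would be smaller.

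Gamma chains complete the trimer. The gamma 1 chain gene *lamc1* (ENSDARG00000036279), shared by most laminins, had 3535, 3343, 3330.0, 3523 and 3308 normalized counts in the distal libraries, 2322, 2428, 2500.5, 2378 and 2188 in the middle and 2498, 3198, 2778, 3198 and 2778 in the proximal libraries. All distal libraries lay above all middle and all proximal ones. *lamc1* was called higher distally than in the middle in the authors' deposited table (log2 fold 0.52, adjusted p = 7.52e-06), and its difference from the proximal fin missed the threshold there (log2 fold 0.24, adjusted p = 0.0692) and passed it in limma (0.24 ± 0.0677, SE; adjusted p = 0.00576). The gamma 3 chain gene *lamc3* had 639 ± 56.1 in the distal, 716 ± 35.8 in the middle and 839.7 ± 62.6 in the proximal libraries, and was called lower distally than proximally (log2 fold −0.39, adjusted p = 0.00315) in the authors' deposited table.

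Chains of the basement membrane under the epidermis include alpha 3 and beta 3, to which hemidesmosomes attach basal keratinocytes. The reference list of names gives lamb3 as the symbol of *si:ch1073-15f12.3* (ENSDARG00000059369), which the rule also leaves out. It had 10382, 12180.0, 14928, 15889 and 6319 normalized counts in the distal libraries, 11792, 8914, 12574, 14078 and 5900.0 in the middle and 5626, 11724, 10233, 9841 and 9431 in the proximal libraries. Distal library 5, middle library 5 and proximal library 1 held the lowest values of their positions in this gene and in *si:ch211-241e1.3* alike. *si:ch1073-15f12.3* was not called between the ends (log2 fold 0.35, adjusted p = 0.369 distal over proximal) in the authors' deposited table, while *si:ch211-241e1.3* was called higher distally. Of 13 basal keratinocyte marker genes 9 were called higher distally than proximally and 2 lower, and the median log2 fold was 0.55. The summed level of the 12 with recovered counts ran from 133348 to 159640 normalized counts in the distal libraries, 98917 to 112455 in the middle ones and 59675 to 64694 in the proximal ones. Most of the difference between the ends came from *krt94* (means of 43263 distal and 3739 proximal) and *col17a1b* (43382 and 20012). Within the sum *krtt1c19e* ran the other way and was called lower distally, with means of 1985 distal and 5025 proximal. The mean of *tp63* was also lower distally (5304 and 6142), with overlapping libraries. The remaining marker, *krt5*, likewise ran the other way in the authors' deposited table, with means of 107569 and 232713 in the distal and proximal fin. The sum leaves *krt5* out, and the fall of *krt5* was larger than the rise of the sum. The part of these cells in the results on the alpha 3 and beta 3 chains was not tested.

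On the receptor side, the laminin-binding integrins pair alpha 3 with beta 1, and alpha 6 with beta 1 or beta 4. Of their 5 alpha subunit genes, 3 were called higher distally than proximally and none lower, where 17.9% of all genes were called higher and 18.1% lower. *itga3b* (ENSDARG00000012824) had 855, 632, 581, 698 and 698 normalized counts in the distal libraries, 264, 336, 201, 219 and 230.2 in the middle and 232, 192, 184, 230.5 and 322 in the proximal libraries. The distal libraries stood above all others at 2.98-fold the proximal mean, and the middle and proximal libraries overlapped. *itga3b* was called higher distally in the authors' deposited tables, by log2 1.58 over proximal (adjusted p = 4.91e-19) and 1.46 over middle (adjusted p = 2.21e-17), and limma gave 1.59 ± 0.147 (SE) over proximal. Its duplicate *itga3a* (ENSDARG00000037917) had 1089.5, 1006, 1034, 1042 and 1042 normalized counts in the distal libraries, 1023, 1050.4, 929.7, 947 and 954 in the middle and 911, 1138, 976, 914 and 1031 in the proximal libraries. These overlapped at all positions, and *itga3a* was called in no pair of the authors' deposited tables (log2 fold 0.07, adjusted p = 0.7 distal over proximal). Of the normalized counts of both alpha 3 genes, *itga3b* made up 39.7% ± 2.91 in the distal, 20.2% ± 2.49 in the middle and 18.9% ± 3.76 in the proximal libraries.

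The alpha 6 beta 4 integrin is the laminin receptor of hemidesmosomes. *itga6b* (ENSDARG00000069946) had 37757, 48034, 56966, 47411 and 41691 normalized counts in the distal libraries, 51028, 41408, 53649.7, 63268 and 47069.7 in the middle and 39859, 55084, 44044, 46575 and 35855 in the proximal libraries, overlapping at all positions, and was called in no pair of the authors' deposited tables (log2 fold 0.067, adjusted p = 0.778 distal over proximal). For *itgb4* the authors' deposited tables give means of 75272 and 76691 in the distal and proximal fin and of 75656 and 84737 in the distal and middle fin, each pair on its own scale, with log2 folds of −0.027 (adjusted p = 0.924) and −0.16 (adjusted p = 0.552). So the alpha 3 chain gene *si:ch211-241e1.3* was called between the distal and proximal fin, while *itga6b* and *itgb4* were not called. The difference between these genes was not tested. The second alpha 6 gene *itga6a* and the related *itga6l* had few reads, at 23.6 ± 4.03 in the distal, 13.3 ± 6.19 in the middle and 13.3 ± 7.35 in the proximal libraries for *itga6a* and 13.5 ± 3.96 in the distal, 2.81 ± 0.881 in the middle and 4.26 ± 2.84 in the proximal libraries for *itga6l*. Both were called higher distally in the authors' deposited table, *itga6a* with log2 0.83 over proximal (adjusted p = 0.0375) and *itga6l* with log2 1.67 (adjusted p = 0.003). In limma the call of *itga6a* over proximal ended without proximal library 4 (adjusted p = 0.0565), and *itga6l* had too few reads to be fitted. Over middle, *itga6a* had a log2 fold of 0.82 in the authors' deposited table (adjusted p = 0.0431), and in limma that call ended without distal library 1 (adjusted p = 0.0623), distal library 5 (0.05, over the threshold before rounding), middle library 2 (0.0566), middle library 3 (0.0744) or middle library 5 (0.0667).

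The beta 1 subunit pairs with most alpha subunits that bind laminin, collagen or fibronectin. Zebrafish carry several beta 1 genes, and 2 of those measured, *itgb1b.1* and *itgb1b.2*, are direct neighbours in the RefSeq annotation of GRCz12tu. *itgb1b.2* (ENSDARG00000022689) had 37.4, 70.7, 51.6, 54.4 and 48.2 normalized counts in the distal libraries, 127, 132, 126, 147 and 119 in the middle and 179, 265, 232, 277 and 150.4 in the proximal libraries. The 3 positions did not overlap and fell in order to the tip, with the proximal mean 4.21-fold the distal one. *itgb1b.2* was called lower in all pairs of the authors' deposited tables, with log2 folds of −2.07 distal over proximal (adjusted p = 3.09e-12), −1.32 distal over middle (adjusted p = 1.4e-12) and −0.76 middle over proximal (adjusted p = 0.00593). limma gave −2.05 ± 0.203 (SE) distal over proximal. *itgb1b.1* (ENSDARG00000053232) had 1770.0, 1598, 1492, 1543 and 1512 normalized counts in the distal libraries, 1272, 1353, 1302, 1192 and 1092 in the middle and 1308, 1214, 1339.7, 1338 and 1329 in the proximal libraries. Here the distal libraries were the highest and separate from the rest, a direction opposite to that of its neighbour. *itgb1b.1* was called higher distally in the authors' deposited tables, by log2 0.28 over proximal (adjusted p = 0.0377) and 0.34 over middle (adjusted p = 0.00798). The third gene, *itgb1a*, had 1186 ± 68.1 in the distal, 929 ± 42.5 in the middle and 1027 ± 155 in the proximal libraries, and was called higher distally than in the middle (log2 fold 0.34, adjusted p = 0.00877) but not than proximally (log2 fold 0.21, adjusted p = 0.142) in the authors' deposited tables. In limma *itgb1a* was also called higher distally than proximally (adjusted p = 0.0385). Of the normalized counts of these 3 genes, *itgb1b.2* made up 1.87% ± 0.460 in the distal, 5.66% ± 0.479 in the middle and 8.58% ± 1.67 in the proximal libraries. Neighbouring copies of 1 gene can exchange reads in alignment, and how the counting treated reads that match both is not given in the sources used here.

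**Figure D3:**
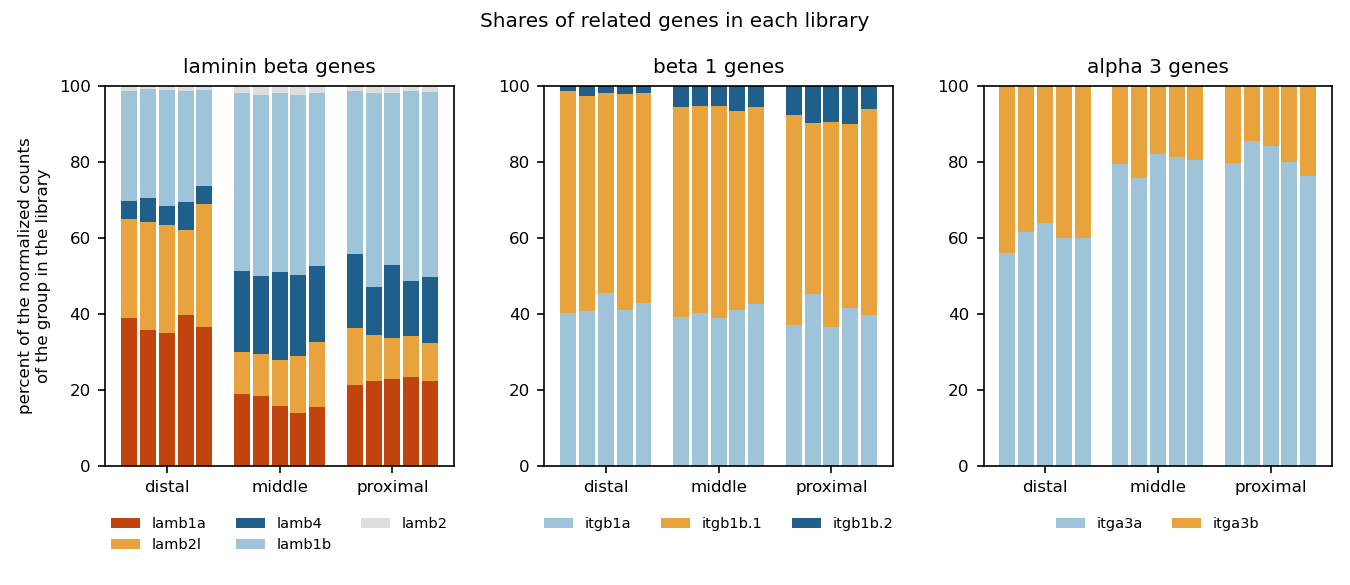
Shares of related genes in the normalized counts of their group, for the laminin beta, integrin beta 1 and integrin alpha 3 genes; each stacked bar is 1 library, 5 per position, with distal, middle and proximal bars from left to right. Counts are not divided by transcript length. In the distal bars *lamb1a*, *lamb2l* and *itga3b* take larger shares, and *lamb4* and *itgb1b.2* smaller ones, than in the proximal bars.

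The collagen receptors pair alpha 1, alpha 2, alpha 10 or alpha 11 with beta 1. In the middle fin both alpha 11 genes, whose product in mammals is the receptor of fibroblasts for fibrillar collagen, were at their lowest. *itga11a* (ENSDARG00000036086) had 216, 209, 192, 157 and 236 normalized counts in the distal libraries, 97.4, 119, 95.3, 69.2 and 90.7 in the middle and 191, 206, 179.9, 243 and 248 in the proximal libraries. Every middle library lay below every library of the other positions, and the distal and proximal ones overlapped. *itga11a* was called lower in the middle than the proximal fin (log2 fold −1.18, adjusted p = 1.19e-12) and higher in the distal than the middle fin (log2 fold 1.09, adjusted p = 6.2e-11) in the authors' deposited tables, but not between the ends (log2 fold −0.079, adjusted p = 0.733). *itga11b* (ENSDARG00000007950) had 522, 711, 658, 489 and 771 normalized counts in the distal libraries, 254, 269, 344, 277 and 354 in the middle and 590.3, 478, 461, 485 and 387 in the proximal libraries. Here too the middle libraries lay below all others. *itga11b* was called lower in the middle than the proximal fin (log2 fold −0.68, adjusted p = 0.000193) and higher in the distal than the middle fin (log2 fold 1.06, adjusted p = 1.21e-07) in the authors' deposited tables. Its call between the ends there (log2 fold 0.39, adjusted p = 0.0407) ended in limma without distal library 2 (adjusted p = 0.0544), distal library 5 (0.0636) or proximal library 5 (0.059).

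The other collagen-binding subunits split. *itga10* (ENSDARG00000002507), known from cartilage in mammals, had 901, 988, 819, 891 and 943 normalized counts in the distal libraries, 565, 635, 531, 453 and 640.2 in the middle and 673, 679, 652, 787 and 709 in the proximal libraries. The positions did not overlap, with the distal libraries highest and the middle ones lowest. *itga10* was called higher distally in the authors' deposited tables, by log2 0.38 over proximal (adjusted p = 0.00388) and 0.68 over middle (adjusted p = 3.5e-08). *itga1* (ENSDARG00000074316) had 662, 702, 724, 781 and 599 normalized counts in the distal libraries, 1176, 1116, 1187, 1063 and 1094 in the middle and 888, 985, 1017, 1051 and 791 in the proximal libraries. The order was the reverse, with the distal libraries lowest, the proximal ones between and the middle ones highest, and no overlap. *itga1* was called lower distally in the authors' deposited tables, by log2 −0.45 against proximal (adjusted p = 0.000405) and −0.71 against middle (adjusted p = 2.45e-09). *itga2.2*, an alpha 2 subunit gene, had 3845 ± 218 in the distal, 3171 ± 53.9 in the middle and 3182 ± 119 in the proximal libraries and was called higher distally (log2 fold 0.27, adjusted p = 0.0267 over proximal, log2 fold 0.27, adjusted p = 0.0333 over middle) in the authors' deposited tables. The related *itga2.1* and *itga2.3* had at most 9.29 and 45.5 normalized counts in any library and were called in no pair. *itga2.2* and *itga1* lie close to each other in the RefSeq annotation of GRCz12tu, with 2 protein-coding genes between them, and were called in opposite directions.

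Integrins that bind the RGD motif pair alpha V with beta 3, 5, 6 or 8, or alpha 5 or alpha 8 with beta 1, and several of them release active TGF-beta from its latent form. The shared subunit gene *itgav* (ENSDARG00000006314) had 11862, 11840.1, 11328, 12363 and 12458 normalized counts in the distal libraries, 12044, 11968, 11677, 12138 and 12605 in the middle and 11738, 11498, 11211, 11189.8 and 11199 in the proximal libraries. Its libraries overlapped at all positions within a narrow range, and it was called in no pair of the authors' deposited tables (log2 fold 0.075, adjusted p = 0.623 distal over proximal). All 5 genes of the beta 3, 5, 6 and 8 subunits were called between the distal and proximal fin, 3 higher and 2 lower. Of all genes 36.0% were called there, 17.9% higher and 18.1% lower. *itgb3b* (ENSDARG00000045070) had 566, 527, 585, 692 and 517 normalized counts in the distal libraries, 495, 493, 494, 396 and 460.5 in the middle and 351, 329, 395, 348 and 366 in the proximal libraries. The positions did not overlap and rose in order to the tip. *itgb3b* was called higher in all pairs of the authors' deposited tables, with log2 folds of 0.69 distal over proximal (adjusted p = 1.29e-07), 0.30 distal over middle (adjusted p = 0.043) and 0.39 middle over proximal (adjusted p = 0.0212). Its duplicate *itgb3a* (ENSDARG00000056767) had 3217, 3246, 3143, 3333 and 3513 normalized counts in the distal libraries, 3186, 3351, 3112, 3089 and 3057 in the middle and 2636, 2649, 2632, 2486 and 2758 in the proximal libraries. The proximal libraries lay below all others, and the distal and middle ones overlapped. *itgb3a* was called higher distally than proximally in the authors' deposited table (log2 fold 0.32, adjusted p = 0.00828). *itgb5* had 708 ± 38.6 in the distal, 584 ± 46.1 in the middle and 530.4 ± 35.8 in the proximal libraries and was called higher distally than proximally in the authors' deposited table (log2 fold 0.42, adjusted p = 0.00153). In limma it was also called higher distally than in the middle (adjusted p = 0.00413).

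The beta subunits whose dimers are best known for activating TGF-beta in mammals, beta 6 and beta 8, ran the other way. *itgb8* (ENSDARG00000028222) had few reads, with 12.1, 15.7, 14.3, 7.47 and 23.6 normalized counts in the distal libraries, 21.4, 41.7, 33.7, 35.6 and 23.97 in the middle and 42.03, 45.7, 34.8, 37.1 and 34.4 in the proximal libraries. Every distal library lay below every proximal one. *itgb8* was called lower distally in the authors' deposited tables, by log2 −1.41 against proximal (adjusted p = 1.46e-05) and −1.10 against middle (adjusted p = 0.00285), and limma gave −1.44 ± 0.266 (SE) against proximal. *itgb6*, of epithelia, had 1523 ± 169.7 in the distal, 1913 ± 194 in the middle and 1975 ± 318 in the proximal libraries and was called lower distally in the authors' deposited tables (log2 fold −0.37, adjusted p = 0.0173 against proximal, log2 fold −0.34, adjusted p = 0.00737 against middle). The difference from the middle fin passed in limma with all libraries (adjusted p = 0.0243) and ended without distal library 3 (0.0721), distal library 4 (0.0536), middle library 2 (0.0551) or middle library 5 (0.0598).

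Among alpha subunits of this group, *itga8* (ENSDARG00000078717) had 452, 434, 479.8, 368 and 403 normalized counts in the distal libraries, 287, 362, 309, 294 and 260.2 in the middle and 261, 221, 305, 281 and 317 in the proximal libraries. The distal libraries lay above all others. *itga8* was called higher distally in the authors' deposited tables, by log2 0.63 over proximal (adjusted p = 6.81e-06) and 0.49 over middle (adjusted p = 0.000482). The fibronectin receptor subunit gene *itga5* had 1718 ± 289 in the distal, 1356 ± 196 in the middle and 2057 ± 635 in the proximal libraries, overlapping at all positions, and was called in no pair of the authors' deposited tables (log2 fold −0.60, adjusted p = 0.151 middle over proximal). *itga2b*, which marks thrombocytes, the fish counterpart of platelets, had 19.8 ± 8.20 in the distal, 6.46 ± 5.42 in the middle and 10.5 ± 4.26 in the proximal libraries and was called higher distally than in the middle (log2 fold 1.61, adjusted p = 0.00977) in the authors' deposited table. Beside it, 3 of 7 thrombocyte marker genes were called higher distally than in the middle and 0 lower, where 13.3% of all genes were called higher and 12.9% lower. Their summed level ran from 5811 to 9182 normalized counts in the distal libraries, 2415 to 3166 in the middle ones and 1863 to 2884 in the proximal ones. Nearly all of it was the thrombospondin gene *thbs1b*, which other cells also express. The other 6 markers summed to 80.1 to 121 in the distal libraries, 67.3 to 109 in the middle ones and 78.003 to 136 in the proximal ones, and these ranges overlapped. Their part in the result was not tested.

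Alpha 4 and alpha 9 are a related pair of subunits that bind fibronectin, tenascin and VCAM1. *itga9* (ENSDARG00000032435) had 898, 984, 939, 708 and 737 normalized counts in the distal libraries, 469, 456, 474, 455 and 389 in the middle and 438, 631, 476, 595 and 527 in the proximal libraries. The distal libraries lay above all others, and the middle and proximal ones overlapped. *itga9* was called higher distally in the authors' deposited tables, by log2 0.68 over proximal (adjusted p = 1.11e-05) and 0.92 over middle (adjusted p = 3.25e-11). *itga4* had 279.8 ± 59.7 in the distal, 243 ± 19.4 in the middle and 269 ± 40.7 in the proximal libraries and was called in no pair (log2 fold 0.058, adjusted p = 0.926 distal over proximal) of the authors' deposited tables.

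**Figure D4:**
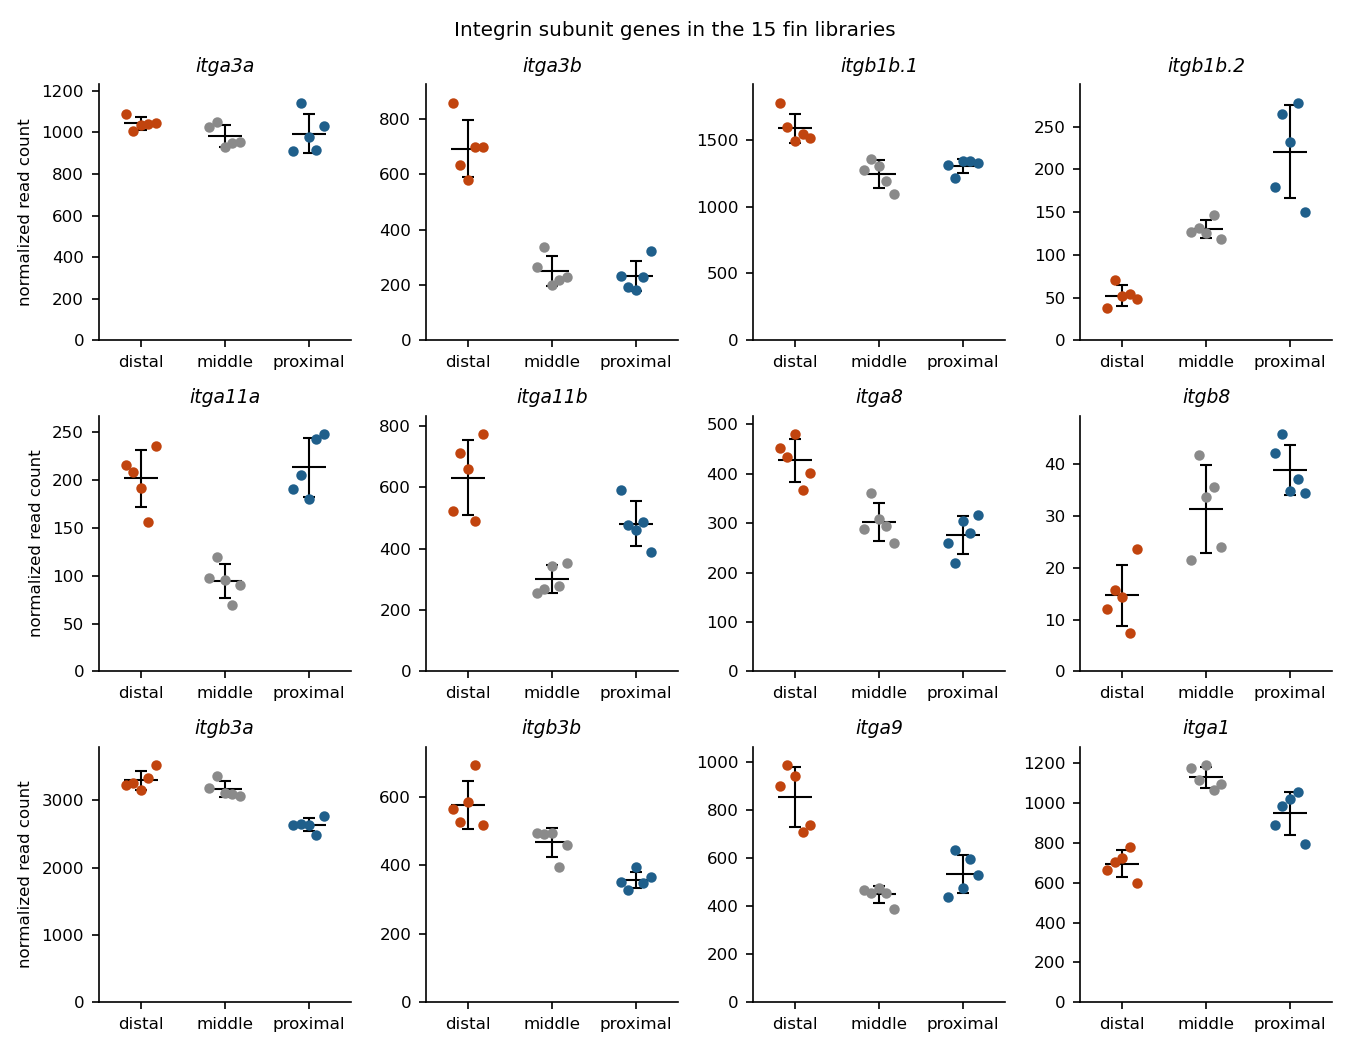
Normalized read counts of 12 integrin subunit genes in each of the 15 libraries (points), with the mean and SD over 5 libraries per position (black), distal, middle and proximal from left to right; each axis starts at 0. *itga3b*, *itga8* and *itga9* have all distal points above the rest, *itgb1b.2* falls in order to the tip, and *itga11a* and *itga11b* are lowest in the middle.

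Integrins of white blood cells were lower in the distal fin. Beta 2 and beta 7 are leukocyte beta subunits, alpha M (Cd11b) marks myeloid cells, and alpha E is a subunit of lymphocytes in epithelia in mammals. Of the 5 genes, 4 were called lower distally than proximally in the authors' deposited tables, where 18.1% of all genes were called lower. The same 4 were called lower than in the middle, where 12.9% of all genes were called lower. None was called between the middle and the proximal fin. *itgam* (ENSDARG00000096587) had 76.01, 77.4, 65.9, 106 and 54.8 normalized counts in the distal libraries, 209, 138, 138, 83.7 and 149.8 in the middle and 167, 132, 194, 269.5 and 168 in the proximal libraries. The distal libraries lay below all proximal ones and overlapped the middle ones. *itgam* was called lower distally in the authors' deposited tables, by log2 −1.29 against proximal (adjusted p = 1.86e-05) and −0.93 against middle (adjusted p = 0.0073), and limma gave −1.29 ± 0.243 (SE) against proximal. *itgb2* (ENSDARG00000016939) had 286, 278, 215, 367 and 246 normalized counts in the distal libraries, 652, 461, 416, 371 and 411 in the middle and 497, 472, 618, 493 and 468 in the proximal libraries. All distal libraries lay below all others. *itgb2* was called lower distally in the authors' deposited tables, by log2 −0.87 against proximal (adjusted p = 4.87e-09) and −0.74 against middle (adjusted p = 0.00464). *itgb7* (ENSDARG00000044318) had 128, 131, 96.6, 139 and 109 normalized counts in the distal libraries, 235, 169, 209.8, 149 and 196 in the middle and 182, 139, 221, 201 and 139 in the proximal libraries, again with the distal libraries below the rest, by a small gap. *itgb7* was called lower distally in the authors' deposited tables, by log2 −0.55 against proximal (adjusted p = 0.00749) and −0.68 against middle (adjusted p = 0.000165). *itgae.2* had 240.1 ± 34.4 in the distal, 330.0 ± 56.9 in the middle and 339.6 ± 62.00 in the proximal libraries and was called lower distally (log2 fold −0.50, adjusted p = 0.00587 against proximal) in the authors' deposited table, and *itgae.1* had 26.7 ± 7.68 in the distal, 39.9 ± 7.57 in the middle and 33.8 ± 8.55 in the proximal libraries and was called in no pair. In limma *itgae.1* was called lower distally than in the middle (adjusted p = 0.0382). A further gene outside the rule, *si:dkey-32n7.4*, named itgam.1 in the reference list of names, had 126 ± 14.3 in the distal, 264 ± 68.2 in the middle and 299 ± 73.1 in the proximal libraries and was called lower distally (log2 fold −1.24, adjusted p = 7.82e-07 against proximal) in the authors' deposited table.

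Most markers of leukocytes, but not all, were also called lower distally. Of 22 measured leukocyte marker genes, 1 was called higher distally than proximally and 14 lower, where 18.1% of all genes were called lower. Against the middle fin none was called higher distally and 16 lower, where 12.9% of all genes were called lower. Between the middle and proximal fin 1 was called, lower. The summed level of the 22 ran from 6101 to 7276 normalized counts in the distal libraries, 7224 to 9614 in the middle ones and 6743 to 8589 in the proximal ones. The distal range overlapped both others. The neutrophil genes *lyz* and *mpx* were among those with the largest folds, *lyz* at 24.4 ± 17.3 in the distal, 63.4 ± 22.2 in the middle and 114 ± 27.8 in the proximal libraries and *mpx* at 75.3 ± 36.9 in the distal, 136 ± 35.5 in the middle and 208 ± 78.7 in the proximal libraries. The macrophage receptor gene *csf1rb* had 35.4 ± 7.85 in the distal, 67.4 ± 11.4 in the middle and 88.2 ± 21.8 in the proximal libraries. Of the markers with the largest counts, the macrophage and pigment cell gene *csf1ra*, which was the one called higher distally, had 1503 ± 138 in the distal, 1399.5 ± 124 in the middle and 1140.0 ± 136 in the proximal libraries. The blood cell GTPase gene *rac2* had 936 ± 44.96 in the distal, 953 ± 36.9 in the middle and 787 ± 68.5 in the proximal libraries. The means of *mpeg1.1* (505 distal, 463 proximal) and *cd8a* (60.2 and 52.1) were also higher distally than proximally, with overlapping libraries. Summed over the 5 leukocyte integrin genes the level was 742 ± 127 normalized counts in the distal, 1167 ± 243 in the middle and 1246 ± 180 in the proximal libraries. The part of the number of leukocytes in these results was not tested.

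**Figure D5:**
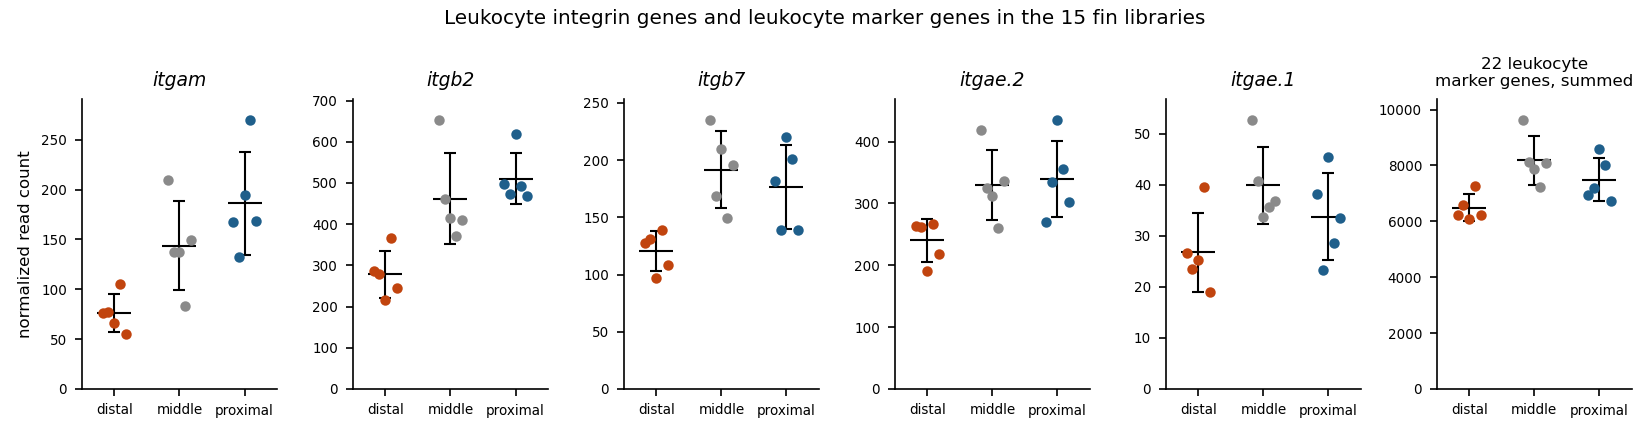
Normalized read counts of the 5 leukocyte integrin genes and the summed counts of 22 leukocyte marker genes in each of the 15 libraries (points), with the mean and SD over 5 libraries per position (black), distal, middle and proximal from left to right; each axis starts at 0. The distal means are the lowest in all 6 panels, and the distal points of *itgb2* and *itgb7* lie below all others.

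The 2 genes that encode no subunit are the soluble beta-like protein gene *itgbl1* and the gene of a beta 1 tail-binding protein, *itgb1bp1*. *itgbl1* (ENSDARG00000040985) had 246, 223, 197, 289 and 146 normalized counts in the distal libraries, 358, 383, 367, 361 and 366 in the middle and 295, 318, 272, 284 and 329 in the proximal libraries. The middle libraries lay above all others and within a narrow range, and the distal and proximal ones overlapped. *itgbl1* was called lower distally in the authors' deposited tables, by log2 −0.44 against proximal (adjusted p = 0.00643) and −0.75 against middle (adjusted p = 4.09e-08). *itgb1bp1* had 225 ± 7.99 in the distal, 243 ± 7.73 in the middle and 257 ± 23.1 in the proximal libraries and was called in no pair of the authors' deposited tables (log2 fold −0.19, adjusted p = 0.275 distal over proximal). In limma it was called lower distally than proximally (adjusted p = 0.0427).

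Along the axis, 33 of the 47 genes were called in at least 1 pair and 14 in none, where 40.2% of all genes were called in at least 1. That share is over genes at any level, while most of the 47 genes are well measured. The means of 20 genes were lowest in the middle, of 10 highest in the middle, of 7 rising and of 10 falling to the tip. Those in order and called between the ends numbered 14, a share close to the 31.0% of all genes that met the same rule, and 2 of them, *itgb1b.2* and *itgb3b*, are in the authors' deposited table of 1144 monotonic genes. A further 4 genes (*itga11a*, *itga11b*, *lama1* and *lamb1a*) were called lower in the middle than the proximal fin and higher in the distal than the middle fin, and *lamb4* was called with both signs turned. Neither the orders of the means nor these calls at both steps were counted over all genes. Whether these counts set the 47 genes apart from the rest was therefore not tested. Whether the step to the distal fin differed from the step to the middle fin was tested in limma as distal minus 2 times middle plus proximal, so that a positive value means that the log2 change from middle to distal exceeds that from proximal to middle. Of 43 genes tested 16 passed, 13 positive and 3 negative, where 11.4% of all genes passed, 5.92% positive and 5.52% negative. *lama1* had 4.27 ± 0.793 (SE, adjusted p = 0.00123), *itga11a* 2.29 ± 0.264 (adjusted p = 1.01e-05) and *lamb1a* 2.28 ± 0.167 (adjusted p = 5.52e-08). Smaller positive values came from *itga11b*, *lamb2l*, *itga3b*, *itga9*, *itga10*, *lamc1*, *lama2*, *lama4*, *itgb1a* and *itgb1b.1*, between 1.74 ± 0.246 for *itga11b* and 0.43 ± 0.117 for *itgb1b.1* (SE). The negative ones were *lamb4* at −1.64 ± 0.186, *itgbl1* at −1.08 ± 0.205 and *itga1* at −0.96 ± 0.142 (SE; adjusted p = 8.03e-06, 0.00155 and 0.000134). For *itgb1b.2*, *itgb3b* and the leukocyte integrins the difference between the steps did not pass the threshold.

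In libraries, 24 of the 46 genes with recovered counts had distal values that did not overlap the proximal ones, where 31.2% of all genes did so. For distal and middle the number was 26, where 23.2% of all genes did so, and for middle and proximal 12, where 9.27% did. These shares are over genes at any level, while most of the 46 genes are well measured, so they are not matched for level.

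Duplicated genes were compared directly, as the log2 ratio of the normalized counts of 1 copy to the other in each library, over 8 pairs. In the exact 2-sided permutation test of 5 distal against 5 proximal libraries, whose smallest possible p is 0.00794, 5 pairs differed after Benjamini-Hochberg adjustment over the 8. The ratio of *itgb1b.1* to *itgb1b.2* was 4.93 ± 0.386 in the distal and 2.60 ± 0.401 in the proximal libraries (log2, SD), a difference of 2.33 (exact p = 0.00794, adjusted p = 0.0159), and no distal library overlapped a proximal one. For *lamb2* over *lamb2l* it was −4.66 ± 0.429 in the distal and −2.88 ± 0.379 in the proximal libraries, a difference of −1.79, and for *itga3a* over *itga3b* 0.602 ± 0.175 in the distal and 2.12 ± 0.358 in the proximal libraries, a difference of −1.52. For *lamb1a* over *lamb1b* it was 0.381 ± 0.133 in the distal and −1.09 ± 0.0856 in the proximal libraries, a difference of 1.47. These last 3 pairs had the same exact p of 0.00794 and adjusted p of 0.0159. *itgb3a* over *itgb3b*, both higher distally, had 2.52 ± 0.189 in the distal and 2.88 ± 0.100 in the proximal libraries, a difference of −0.36 (exact p = 0.0159, adjusted p = 0.0254). For *itga11a* over *itga11b* the difference of −0.46 missed the threshold (exact p = 0.0397, adjusted p = 0.0529), as did *itga6a* over *itga6b* at 0.88 (exact p = 0.0476, adjusted p = 0.0544) and *itga6a* over *itga6l* at −0.84 (exact p = 0.127, adjusted p = 0.127).

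Other genes of the same system were counted from lists, beside the 36.0% of all genes called between the distal and the proximal fin, and are named where they were called, averaged 20 normalized counts or more over both positions and had the 3 largest folds of their direction. Among 17 measured basement membrane partners of laminin, 8 were higher distally than proximally and 3 lower, with a median log2 fold of 0.30 against −0.044 over all genes. The collagen IV genes *col4a6* (log2 fold 2.11, adjusted p = 1.69e-75) and *col4a5* (log2 fold 1.72, adjusted p = 6.09e-53) and the collagen-binding glycoprotein gene *sparc* (log2 fold 1.05, adjusted p = 9.84e-22) rose most among these in the authors' deposited table. The falls there were led by the nidogen gene *nid2b* (log2 fold −1.46, adjusted p = 0.0494), the collagen XV gene *col15a1b* (log2 fold −1.46, adjusted p = 1.27e-25) and the peroxidasin gene *pxdn* (log2 fold −0.33, adjusted p = 0.0138), whose product cross-links collagen IV. *nid2b* had few reads and overlapping libraries, at 10.4 to 18.7 normalized counts in the distal and 3.87 to 64.8 in the proximal libraries. The list of hemidesmosome and other laminin receptor genes also held keratin, dystrophin, utrophin and sarcoglycan genes. Of its 18 genes, 9 were higher distally and 3 lower, with a median of 0.27. The sarcoglycan gene *sgcg* (log2 fold 2.51, adjusted p = 8.02e-61), the laminin alpha 5 receptor gene *bcam* (log2 fold 1.78, adjusted p = 1.22e-47) and the hemidesmosomal collagen XVII gene *col17a1b* (log2 fold 1.12, adjusted p = 2.13e-24) led the rises in the authors' deposited table, and the keratin genes *krtt1c19e* (log2 fold −1.34, adjusted p = 5.02e-09) and *krt5* (log2 fold −1.11, adjusted p = 4.08e-08) and the dystrophin gene *dmd* (log2 fold −0.71, adjusted p = 4.99e-07) led the falls there.

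Of 29 measured integrin ligands other than laminin, 11 were higher distally than proximally and 6 lower, with a median log2 fold of 0.26. The fibronectin gene *fn1b* (log2 fold 3.15, adjusted p = 2.59e-91), the RGD matrix protein gene *tgfbi* (log2 fold 2.72, adjusted p = 3.89e-116) and the tenascin gene *tnw* (log2 fold 1.90, adjusted p = 3.02e-50) rose most among these in the authors' deposited table. The falls there were led by *vcam1* (log2 fold −2.47, adjusted p = 4.07e-47), which encodes an endothelial ligand of alpha 4 integrins, the elastin microfibril gene *emilin2a* (log2 fold −1.13, adjusted p = 6.95e-11) and the von Willebrand factor gene *vwf* (log2 fold −0.95, adjusted p = 1.63e-08). Inside the cell, focal adhesion adaptors and kinases link integrins to actin. Of 40 measured, 7 were higher distally and 9 lower, with a median of −0.09, so that the share called was close to that of all genes. The vinculin gene *vcla* (log2 fold 0.81, adjusted p = 4.58e-11), the parvin gene *parvab* (log2 fold 0.58, adjusted p = 0.00141) and the tensin gene *tns2b* (log2 fold 0.53, adjusted p = 0.000455) led the rises in the authors' deposited table, and the actin regulator gene *vaspa* (log2 fold −0.87, adjusted p = 0.00822), the leukocyte parvin gene *parvg* (log2 fold −0.77, adjusted p = 0.00217) and the talin gene *tln2a* (log2 fold −0.70, adjusted p = 5.88e-05) the falls. These lists were not tested against each other.

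Marker genes of the cell types in a fin were counted in the same way, against 36.0% of all genes called, 17.9% higher and 18.1% lower. Between the distal and the proximal fin, counts of markers called higher and lower in the authors' deposited table were 9 and 2 of 13 for basal keratinocytes, 11 and 1 of 14 for superficial epidermis, 10 and 4 of 19 for osteoblasts and fin fibroblasts, and 7 and 3 of 17 for smooth muscle and pericytes. They were 6 and 7 of 19 for endothelium, 4 and 9 of 19 for Schwann cells and nerve, 0 and 6 of 17 for skeletal muscle, and 1 and 1 of 7 for thrombocytes. For skeletal muscle and thrombocytes the share called in either direction was no larger than that of all genes. All 6 skeletal muscle calls were lower, however, and the median log2 fold of that list was −0.64, against −0.044 over all genes. Every gene of these lists that is in all 3 tables and has recovered counts had reads at every position. The summed level of the skeletal muscle markers ran from 379 to 473 normalized counts in the distal libraries, 525 to 830.0 in the middle ones and 731 to 887 in the proximal ones. The largest part of the difference between the ends came from *ttna*, with means of 61.2 distal, 132 middle and 306 proximal. The means of *ckmb*, *tnnt3b*, *smyhc1*, *acta1a* and *ryr1b* ran the other way, higher distally than proximally. *mylpfa*, *tnnc2*, *actc1b* and *casq1b* stood near the limit of detection. Beside the lower level of *lama2* in the middle than the proximal fin, 3 of 18 skeletal muscle markers were called lower there and 0 higher. For Schwann cells and nerve it was 4 lower and 0 higher of 19, where 3.80% of all genes were called lower. Distal over middle, *lama2* was not called in the authors' deposited table. There 3 muscle markers were lower and 1 higher, and 5 Schwann cell and nerve markers lower and 4 higher. Between the ends *lama2* was not called either, while both lists had more markers called lower than higher. Whether the makeup of the tissue bears on any of the genes above was not tested.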

How the data were processed

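Per the labels, total RNA from pooled fin pieces was extracted with TRIzol, depleted of ribosomal RNA and read as 50 bp pairs. Per the submitters' processing notes, TopHat2 2.0.13, HTSeq and DESeq were used with GRCz10; no source used here names the annotation, the strand setting or the filters. The signal columns of the authors' deposited tables hold, per position, the mean over 5 libraries of size-factor-scaled read counts (in the monotonic table scaled over all positions and headed rpm). The authors' deposited ratio columns are the fold of those means (0.001 added where 1 is 0), the log2 columns its log2, the p-value columns the DESeq p and its Benjamini-Hochberg adjustment, and the score column of the authors' monotonic table, like its log2 and p-values, was not used here.

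Whole counts per library were recovered from the 15 printed digits of the means by lattice reduction (sympy), and 22739 of 22771 genes in all tables had a single solution. All held-out means of the monotonic table (567 distal, 570 middle and 570 proximal) were matched within a relative 1e-13. Recovery and fits were tested on simulated data. limma 3.58.1 (voom; R 4.3.3; solved genes with at least 10 reads in 5 libraries) was the alternative, and paralogue ratios had 0.5 added to each level. Per the series' design text the 5 libraries of a position are biological replicates; whether 1 fin gave pieces to several positions is not said, and any such link was not modelled. The genes, lists and tests were chosen with earlier results of these data known. Per-library values were given by rule: the 14 called genes with the largest distal over proximal folds at a mean of at least 20, up to 4 more per other pair, paralogues and the 4 genes with the largest counts. The values of 1 of the 47 genes are not reported here. Of the marker lists, genes are named by the size of their fold for leukocytes alone. Alternatives were a threshold of 0.01, subunits alone, limma without a filter, with other scalings, on 2 positions or without 1 library, and a pseudocount of 1. Counting intervals were not needed, since spread was measured between libraries.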

Additional observations from a re-analysis of the deposited data

Results flagged for a closer look

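In 8 of the 138 sets of 5 libraries examined, 1 library lay far from the other 4 (a gap above 0.71 of the range of the set), close to the 1 in 20 that chance gives. The highest libraries were distal library 5 of *itga2.2* at 4226 normalized counts (next 3805), middle library 4 of *itga6a* at 24.04 (next 12.7), proximal library 4 of *itga2b* at 18.1 (next 9.29), proximal library 3 of *itgb2* at 618 (next 497), middle library 2 of *itgb1a* at 1003 (next 928) and proximal library 5 of *lama3* at 3.71 (next 0.977). The lowest were middle library 5 of *itga9* at 389 (next 455) and proximal library 2 of *itgb1b.1* at 1214 (next 1308). Without any 1 of these libraries the calls of *itga2.2*, *itgb2*, *itga9* and *itgb1b.1* in comparisons of the distal fin kept an adjusted p under 0.05 in limma. So did the call of *itgb1a* distal over middle.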

How the results depend on the processing

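No paired analysis was possible because the recovered libraries carry no replicate number of the labels and the deposited tables hold means. Distal over proximal, 11 genes were higher at the authors' adjusted p under 0.01 (17 at 0.05). Of the 11 called lower at 0.05, all but *itgb6* also passed 0.01, so the excess of higher over lower genes was smaller there. In limma without 1 library, between 16 and 19 were higher and 11 to 12 lower. The shares of all genes at 0.01 and in the alternative runs were not counted. Middle over proximal, where 2 were higher and 6 lower, 0 were higher at the authors' adjusted p under 0.01. Of the 6 lower, all but *lama1* also passed 0.01. There limma called 4 higher, 4 with no filter, 5 with equal totals and 5 on those 2 positions alone. It called 11 lower, and also 11 with no filter, with totals of solved genes and on those positions alone. Without 1 library it called from 2 to 4 higher and from 8 to 10 lower. No gene call turned its direction in any alternative run. *itga11b* distal over proximal missed the threshold with totals of solved genes as scale (log2 0.31, adjusted p = 0.0595). Leaving out 1 library, the log2 ratio difference between distal and proximal fin ran from −0.58 to −0.33 for *itga11a* over *itga11b*, from −1.21 to −0.63 for *itga6a* over *itga6l* and from 0.66 to 1.12 for *itga6a* over *itga6b*, and each of these passed the threshold in at least 1 such setting. Of the calls made by both the authors and limma, 25 of 27 distal over proximal were kept without any 1 library. So were 6 of 8 middle over proximal and 25 of 27 distal over middle. Those that ended without 1 library are given with their values beside the genes. Calls made by limma alone are not among these. Depth limits *itga2.1*, *itga2.3*, *itga6a*, *itga6l*, *itga2b* and *lama3*, whose means over the distal and proximal fin are under 20.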
